A study of Mus musculus with 2 samples.

Results

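The enzymes that make phosphatidylcholine (PC) and phosphatidylethanolamine (PE) were followed at the mRNA level in liver RNA of L-Lpcat3 KO and control mice. The list held 10 genes: Chka, Chkb, Pcyt1a, Chpt1, Cept1, Pemt, Etnk1, Etnk2, Pcyt2 and Ptdss1. Members were found as the probe sets whose platform annotation names 1 of these genes and no other. This gave 23 of the 45101 probe sets of the array and 9 of the 10 genes. Etnk2 was not analysed here. Both samples were livers of male mice carrying the floxed Lpcat3 allele on both chromosomes (Lpcat3fl/fl). The L-Lpcat3 KO mice also carried Albumin-Cre, a recombinase transgene driven by the albumin promoter, which is active in hepatocytes and leaves Lpcat3 intact in the other cells of the liver. The mice were 16 weeks old, had eaten a western diet since the age of 7 weeks, that is for 9 weeks, and had gone without food for 6 hr when the livers were taken. RNA of 5 mice was pooled for each genotype and hybridized to 1 Affymetrix mouse expression array, so each genotype is a single sample, called the control pool and the KO pool below. The differences between genotypes therefore have no replicate check and no test was possible.

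PC and PE are the main phospholipids of the endoplasmic reticulum and of the surface of very low-density lipoprotein (VLDL). Most liver PC is built by the CDP-choline pathway, in which choline is phosphorylated, activated to CDP-choline and joined to diacylglycerol. PE is built from ethanolamine by a parallel CDP-ethanolamine pathway. Hepatocytes have an additional route, in which Pemt methylates PE to PC. Lpcat3 acts after these routes: it reloads lysophosphatidylcholine with polyunsaturated acyl chains such as arachidonate. The arrays address whether mRNAs of the synthesis enzymes differ between livers with and without this remodeling enzyme in their hepatocytes.

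Values are MAS5 signal intensities on a linear scale, in which each array was scaled by the authors to the same trimmed mean. Signals below the median of all values, 86.6, were raised to that floor before log2 ratios of the KO pool over the control pool were taken. A ratio with 1 side below the floor is a bound. A gene is represented by its probe set of highest signal, and the other probe sets are given beside it. A difference of at least 2-fold was counted as a call. Probe sets of the same gene had log2 ratios with an SD of 0.29, pooled over 4476 genes. It was 0.15 among probe sets of signal 1000 or more on both arrays and 0.33 among those under 1000. This SD stands in for measurement error and holds no spread between mice. Lpcat3 itself had a signal of 5173 in the control pool and 2198 in the KO pool, a log2 ratio of -1.23 on its single measured probe set. Whether that probe set lies in the floxed exons was not examined here, which limits what it says about the label.

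None of the 9 PC and PE synthesis genes differed by 2-fold between the genotypes. Chka, a choline kinase, was 1.51-fold higher in L-Lpcat3 KO liver and was the member farthest from 0. The other 8 genes ranged from a log2 ratio of -0.27 for Ptdss1 to 0.18 for Chkb. The median log2 ratio of the 9 genes was -0.02, beside 0.01 for all 12290 measured genes. Of the measured genes, 3.40% differed by at least 2-fold, 2.70% upward and 0.700% downward, so a count of 0 in 9 genes is not a result about this list. Higher and lower calls numbered 332 and 86 over all measured genes, and 594 and 41 after centring on hepatocyte markers. At 1.5-fold, Chka alone of the 9 members (1 gene) was higher and none lower, beside 9.07% of the measured genes higher and 3.83% lower (12.9% in all). Chka was at the 1.5-fold line, and of 10 alternative settings 5 put it below, with log2 ratios from 0.37 to 0.56. The median size of the log2 ratio, taken without its sign, was 0.10 for the members and 0.21 for all measured genes. Ratios shrink with signal on these arrays, and 8 of the 9 members had a signal of at least 1000 on both arrays. Within that range the median size was 0.08 for the 8 members and 0.14 for the 4025 measured genes. Of the 23 probe sets, 17 were at or above the floor on both arrays and 2 more on 1 of them. Among these 17, 7 were higher in L-Lpcat3 KO liver, 10 were lower, and 1 differed by at least 1.5-fold. The shares above are per gene, and the same shares over all probe sets were not taken, so these counts only describe the members.

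**Figure D1:**
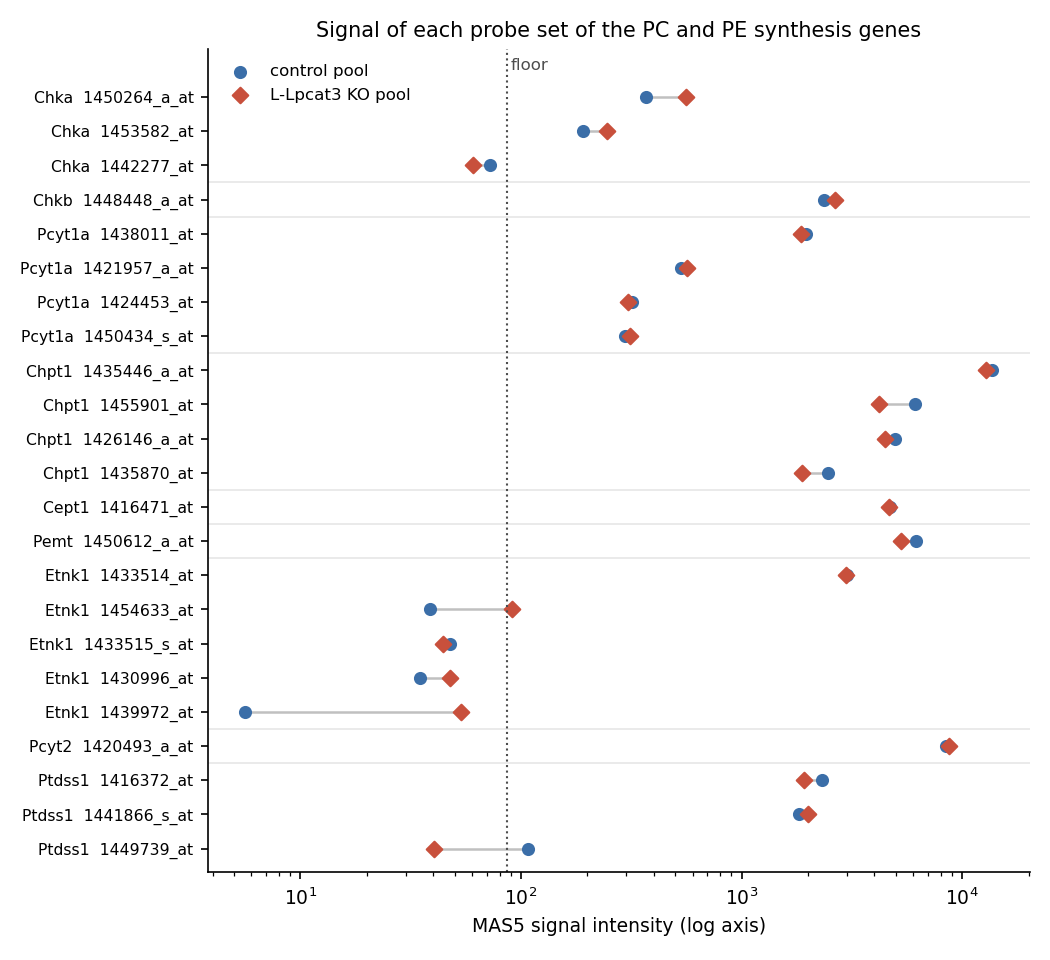
Each row is a probe set of a PC or PE synthesis gene, with its MAS5 signal on a log axis in the control pool (blue circles) and the L-Lpcat3 KO pool (red diamonds), 1 array each; the dotted line is the floor of 86.6. The pairs of symbols overlap for most probe sets above the floor. The Chka pair, the lower Chpt1 signals in L-Lpcat3 KO liver and the wide pairs at or below the floor stand out.

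The choline kinases catalyze the entry step of the CDP-choline pathway. The probe set of Chka with the highest signal (1450264_a_at) had a signal of 370 in the control pool and 558 in the KO pool, a log2 ratio of 0.59. The second Chka probe set (1453582_at) had a signal of 191 in the control pool and 247 in the KO pool, a log2 ratio of 0.37. The third was below the floor on both arrays, at 72.0 and 60.4. Both measured probe sets were thus higher in L-Lpcat3 KO liver, at signals where the pooled SD of 0.33 is of similar size to the ratios. Of all measured genes, 12.6% had a log2 ratio at least as far from 0 as that of Chka. Among measured genes of signal under 1000 on both arrays, 12.1% were at least 1.5-fold higher. Chkb, the other choline kinase, was at 2359 in the control pool and 2665 in the KO pool on its single probe set, a log2 ratio of 0.18. This is close to the pooled SD at that signal.

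Pcyt1a encodes the alpha form of the enzyme that turns phosphocholine into CDP-choline, the rate-limiting step of the pathway. Its best probe set (1438011_at) was at 1950 in the control pool and 1865 in the KO pool, a log2 ratio of -0.06. The other 3 probe sets had signals between 296 and 568, and their log2 ratios were 0.10, -0.05 and 0.08. The 4 probe sets had a mean log2 ratio of 0.02 with an SD of 0.09, the narrowest spread among the 4 members with several probe sets on both arrays. Its message thus showed no difference larger than the spread among its own probe sets. The fourth probe set by signal (1450434_s_at) is of a type that can match transcripts of several genes.

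Chpt1 and Cept1 encode the transferases that join the activated head group to diacylglycerol: Chpt1 uses CDP-choline, and Cept1 uses CDP-choline or CDP-ethanolamine. Chpt1 was lower in L-Lpcat3 KO liver on all 4 of its probe sets. The brightest (1435446_a_at) was at 13714 in the control pool and 12800 in the KO pool, a log2 ratio of -0.10. A second probe set (1426146_a_at) was at 4978 and 4475, a log2 ratio of -0.15. These 2 probe sets carry the suffix for sets shared by several transcripts of a gene, and they averaged -0.13. The 2 without that suffix averaged -0.47: 1455901_at was at 6134 in the control pool and 4211 in the KO pool, and 1435870_at at 2477 and 1870, with log2 ratios of -0.54 and -0.41. The mean over the 4 probe sets was -0.30 with an SD of 0.21, a 1.23-fold lower level in L-Lpcat3 KO liver. The size of the Chpt1 difference therefore depended on the probe set, and no probe set reached 1.5-fold. Of the 603 genes with at least 4 probe sets at or above the floor on both arrays, 82 (13.6%) were lower on all of them. Cept1 was at 4687 in the control pool and 4664 in the KO pool, a log2 ratio of -0.01 on its single probe set.

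Upstream sequence is shown for Chka and Chpt1, the members whose measured probe sets were all higher or all lower with more than 1 probe set, and for Pcyt1a, the rate-limiting step. RefSeq's table on build GRCm38.p6 gave windows for 7 of the 9 measured genes, and the 250 bases before the annotated start are printed 5′ to 3′. Capitals mark matches, on either strand, to any of 6 short motifs: the GC box GGGCGG, the E-box CACGTG, the CCAAT box CCAAT, the TATA box TATAAA, the nuclear receptor half-site AGGTCA and the sterol regulatory element TCACNCCAC. Matches may overlap, and a run of capitals may hold several.
Chka, chr19:3851523-3851772, plus strand: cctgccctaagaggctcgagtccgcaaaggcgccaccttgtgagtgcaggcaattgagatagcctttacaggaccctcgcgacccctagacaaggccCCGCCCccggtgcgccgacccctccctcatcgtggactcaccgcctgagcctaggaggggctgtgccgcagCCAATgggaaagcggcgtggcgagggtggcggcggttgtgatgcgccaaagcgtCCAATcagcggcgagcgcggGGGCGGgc
Chpt1, chr10:88503971-88504220, minus strand: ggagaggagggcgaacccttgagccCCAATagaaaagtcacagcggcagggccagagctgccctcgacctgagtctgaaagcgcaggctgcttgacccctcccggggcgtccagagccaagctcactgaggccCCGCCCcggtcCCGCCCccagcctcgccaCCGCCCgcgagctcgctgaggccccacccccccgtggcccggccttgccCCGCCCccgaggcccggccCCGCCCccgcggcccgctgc
Pcyt1a, chr16:32430671-32430920, plus strand: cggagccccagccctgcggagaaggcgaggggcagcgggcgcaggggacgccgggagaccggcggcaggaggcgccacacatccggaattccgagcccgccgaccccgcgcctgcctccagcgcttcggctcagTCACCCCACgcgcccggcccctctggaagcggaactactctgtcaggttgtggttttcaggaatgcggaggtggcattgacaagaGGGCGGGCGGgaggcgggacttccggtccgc
The Chka window held 2 GC boxes and 2 CCAAT boxes, and the Chpt1 window 5 GC boxes and 1 CCAAT box. The Pcyt1a window shown held 2 overlapping GC boxes and 1 match to the sterol regulatory element. RefSeq gives 3 windows for Pcyt1a, and the one at chr16:32430980-32431229 held neither. Of all 32851 windows of this length, 32.7% held the GC box, 33.8% the CCAAT box and 1.05% the sterol regulatory element. None of the 3 windows held the E-box (6.02% of all windows), the TATA box (12.4%) or the half-site (14.0%). GC content was 68.0% for Chka, 75.6% for Chpt1 and 71.6% for Pcyt1a, beside a median of 52.4% over all windows. A match of letters is a description and does not show binding, and the arrays hold no binding data.

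Pemt, the PE methyltransferase of hepatocytes, had a signal of 6183 in the control pool and 5294 in the KO pool. Its log2 ratio was -0.22 on 1 probe set (1450612_a_at), which is larger than the pooled SD of 0.15 at that signal and below the 1.5-fold line. Of all measured genes, 46.9% had a log2 ratio at least as far from 0. Hepatocyte markers stood at a value similar to that of Pemt at the main setting. Of 12 fixed markers 11 were measured, and 10 of them were below 0. Their median log2 ratio was -0.20, with a range from -0.43 to 0.05. The marker median was -0.07 with quantile normalization and -0.10 with loess, where Pemt was at -0.20 and -0.18. The likeness of Pemt to the markers thus depended on the normalization. Whether the markers differ between the genotypes apart from the normalization was not tested. Fewer hepatocytes and less RNA per hepatocyte also cannot be told apart in whole liver RNA. The values were also set against the median of the hepatocyte markers at the main setting, a comparison chosen after they were seen. Relative to it, Pemt was at -0.03, Chpt1 at 0.10, Pcyt1a at 0.13 and Chka at 0.79. Chkb was at 0.37, Pcyt2 at 0.24, Cept1 at 0.19, Etnk1 at 0.17 and Ptdss1 at -0.07. These values use the brightest probe set of each gene. For Chpt1 the mean over its 4 probe sets was -0.30 before this shift, so its sign here depended on the probe set.

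In the CDP-ethanolamine pathway the measured members were nearly level between the genotypes. Etnk1, an ethanolamine kinase, was at 3011 in the control pool and 2962 in the KO pool, a log2 ratio of -0.02. Of its other 4 probe sets, 3 were below the floor on both arrays. The remaining one (1454633_at) was at 38.5 in the control pool and 91.4 in the KO pool, which gives only a bound of at least 1.05-fold higher. Pcyt2, the enzyme that makes CDP-ethanolamine and controls the rate of this pathway, was at 8438 and 8693, a log2 ratio of 0.04 on its single probe set.

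Ptdss1 makes phosphatidylserine by exchanging the head group of PC for serine, and so draws on PC. Its probe sets disagreed. The brightest (1416372_at) was at 2313 in the control pool and 1921 in the KO pool, a log2 ratio of -0.27. A second (1441866_s_at) was at 1825 and 1998, a log2 ratio of 0.13, so the pair differed by 0.40. The third (1449739_at) had a signal of 107 in the control pool and lay below the floor in the KO pool, at 40.4, a bound of -0.31 or lower. No direction can be given for Ptdss1 from these probe sets.

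**Figure D2:**
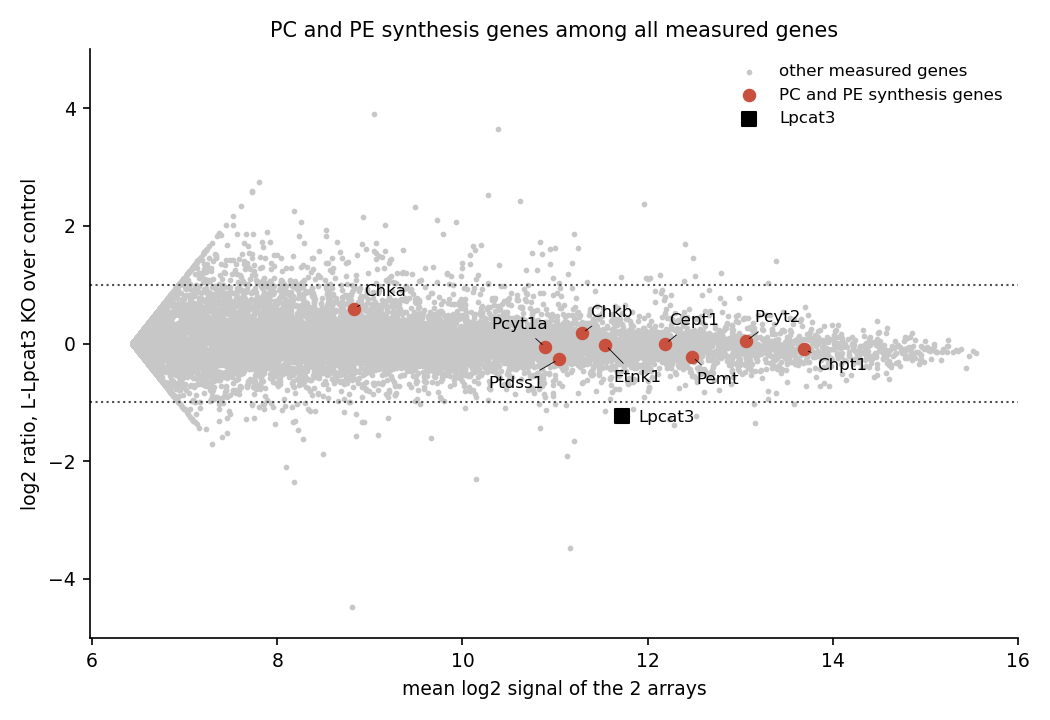
The x axis gives the mean log2 signal of both arrays and the y axis the log2 ratio of the KO pool over the control pool, for every measured gene (grey); the 2-fold lines are dotted. The 9 PC and PE synthesis genes (red) lie between -0.27 and 0.59, inside the 2-fold lines, and Lpcat3 (black square) lies at -1.23.

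The genes around these enzymes were taken from 6 fixed lists of 74 genes, of which 63 were measured. At 2-fold, 1 was higher and 2 were lower (4.76%, beside 3.40% of all measured genes). The rest of PC, PE and phosphatidylserine synthesis, with 3 of 4 genes measured, had no call and a median log2 ratio of 0.00. Pisd, the mitochondrial phosphatidylserine decarboxylase that yields PE, was at 3034 in the control pool and 3042 in the KO pool. Selenoi, the ethanolamine phosphotransferase, was at 1322 and 966, a log2 ratio of -0.45, although its other 2 measured probe sets were at -0.06 and 0.01. Ptdss2, which makes phosphatidylserine from PE, was at 0.09, with 4 probe sets at or above the floor on both arrays from -0.71 to 0.09 and 2 bounds, of at least 0.67 and of -0.44 or lower.

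The list of phosphatidic acid and diacylglycerol supply held the acceptor side of both pathways. None of its 19 measured genes reached 2-fold, 13 were above 0, and the median log2 ratio was 0.22, beside 0.01 for all measured genes. The share of all measured genes above 0 was not taken, so the count of 13 only describes the list. Gpam, the mitochondrial glycerol-3-phosphate acyltransferase, was at 10714 in the control pool and 16459 in the KO pool, a 1.54-fold difference. Gpam was the 1 gene of the 19 at least 1.5-fold higher, beside 9.07% of all measured genes. Its second probe set gave a nearly equal log2 ratio, 0.61 beside 0.62. Gpat2, a related acyltransferase, was at 115 and 167, a log2 ratio of 0.54. Dgke, a diacylglycerol kinase, was at -0.54, but its other 2 measured probe sets gave bounds of at least 0.69 and 0.52 in the opposite direction.

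Head group supply held the largest difference of these lists. Etnppl encodes the lyase that breaks down phosphoethanolamine, the product of the ethanolamine kinases and substrate of Pcyt2. It had a signal of 3016 in the control pool and 1118 in the KO pool, 2.70-fold lower. Its second probe set (1431406_at) was at 174 and 93.8, 1.85-fold lower, so both were lower. Of the 14 genes of choline and ethanolamine uptake and oxidation, 8 were measured, Etnppl was the 1 call, and the median log2 ratio was 0.09. Slc44a2, a choline transporter-like protein gene, was at 408 in the control pool and 653 in the KO pool, 1.60-fold higher, with 0.50 on its second measured probe set in log2 terms. Slc44a3, of the same family, was at a log2 ratio of 0.48. Aldh7a1, which oxidizes betaine aldehyde derived from choline, was at 13787 and 12156, a log2 ratio of -0.18.

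**Figure D3:**
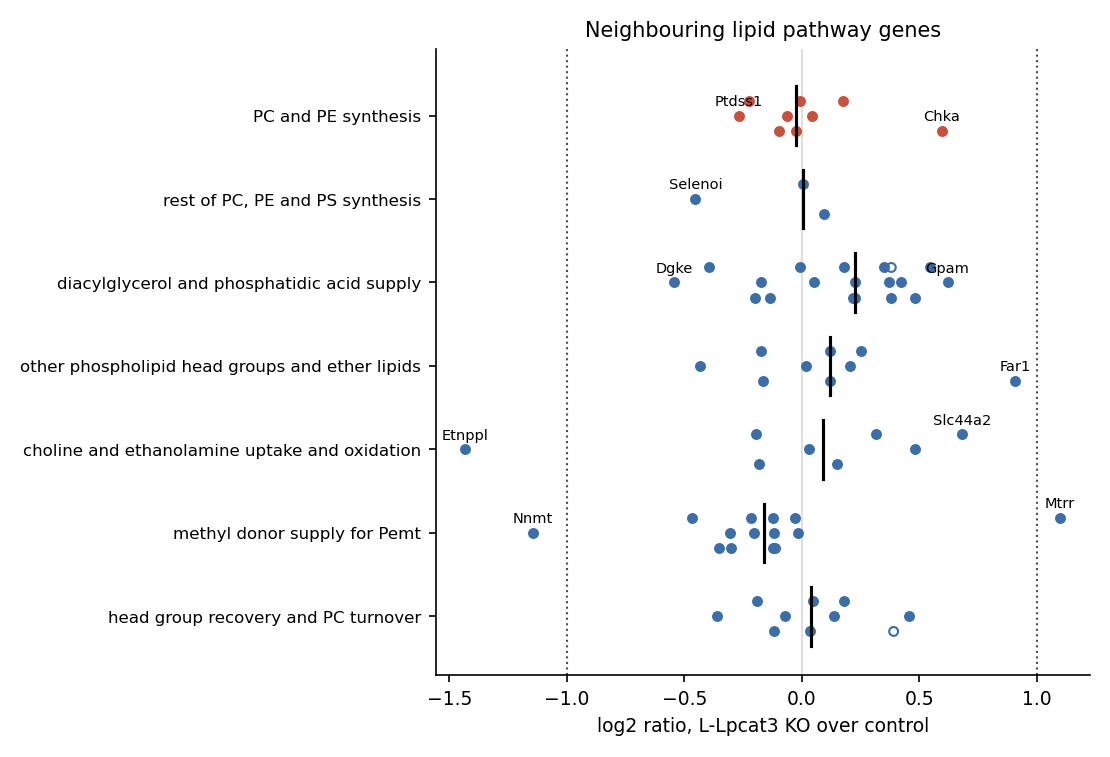
The x axis gives the log2 ratio of the KO pool over the control pool for the measured genes of each list (points, open where the ratio is a bound), with medians as black bars and dotted 2-fold lines. Etnppl (-1.43) and Nnmt (-1.14) lie to the left of the 2-fold lines, Mtrr (1.10) to the right, and the PC and PE synthesis genes (red) lie inside them.

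Methyl groups for Pemt come from S-adenosylmethionine. In the list of methyl donor supply 14 of 15 genes were measured, 13 were below 0, and the median log2 ratio was -0.16, beside -0.20 for the hepatocyte markers. Over all measured genes the median was 0.01, and the share below 0 was not taken. Nnmt, which spends S-adenosylmethionine to methylate nicotinamide, was at 4437 in the control pool and 2008 in the KO pool, 2.21-fold lower on its single probe set. Relative to the hepatocyte markers its log2 ratio was -0.95, short of 2-fold. Mtrr, the reductase that keeps methionine synthase active, was at 233 and 498, 2.14-fold higher on its single probe set. The log2 ratio of Mtrr was a bound of at least 0.30 when the floor was raised to the 75th percentile, and 0.96 with a pseudocount of 50. Sardh, the mitochondrial sarcosine dehydrogenase, was at -0.47 and -0.62 on its 2 probe sets. Bhmt, which remethylates homocysteine with choline-derived betaine, was at 43660 and 40138, a log2 ratio of -0.12.

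In the remaining 2 lists no gene reached 2-fold at the main setting. Of the 11 genes of other phospholipid head groups and ether lipids 9 were measured, with a median of 0.12. Far1, which makes the fatty alcohol of ether lipids, was at 110 in the control pool and 206 in the KO pool, a log2 ratio of 0.91, and a second probe set gave at least 0.13. Relative to the hepatocyte markers Far1 was at 1.10, past 2-fold. Crls1, the cardiolipin synthase, was at -0.43 and 0.09 on its 2 probe sets, and Ptpmt1, a mitochondrial phosphatase of the same route, was at 0.25. Of the 11 genes of head group recovery and PC turnover 10 were measured, with a median of 0.04. Pld2, a phospholipase D that releases choline from PC, was at 0.45 and -0.47 on its 2 probe sets. Pnpla6, a lysophospholipase, was at -0.36, Pnpla7 of the same family at 0.14, and Gdpd3 at a bound of at least 0.39.

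Markers of several other cell types were higher in the KO pool on the same arrays. Summed signals below are over all named genes of a list as deposited, including values under the floor. Of 15 Kupffer cell and macrophage markers 14 were measured, 8 were at least 2-fold higher, and the summed signal of the list was 18809 in the control pool and 39838 in the KO pool. Of 8 B cell and plasma cell markers, the 3 at or above the floor on both arrays (Ighm, Jchain and Cd22) were at least 2-fold higher. Cd79a, Cd79b and Ms4a1 were below it in the control pool and so counted as measured only through the KO pool, and Pax5 was below it on both arrays (summed signal 1096 and 4919). Stellate cell and fibroblast markers were at least 2-fold higher in 5 of 11 genes (summed signal 16612 and 26752), and endothelial markers in 3 of 10 (7309 and 9616). Of 6 adipocyte markers, Fabp4 was at 1006 in the control pool and 3327 in the KO pool on its probe set of highest signal. Its 3 measured probe sets had log2 ratios, any bounds included, from 0.11 to 1.73. Adipoq and Retn reached the floor only in the KO pool, and Lep was below it on both arrays (summed signal of the list 1114 and 3863). Of 9 T cell and NK cell markers 6 were below the floor on both arrays, and the summed signal was 412 and 707. The 3 others were below it in the control pool alone. Of 7 neutrophil markers, Csf3r was the 1 gene at or above the floor on both arrays, with a log2 ratio of 0.37 (summed signal of the list 472 and 709). S100a8, S100a9 and Mpo reached the floor only in the KO pool, with bounds of at least 1.10, 0.33 and 0.19. Elane was below it on both arrays. Of 6 cholangiocyte markers 2 were measured, Epcam at a log2 ratio of -0.09 and Sox9 at a bound of -0.12 or lower. Their summed signal of 355 and 402 was higher in the KO pool through genes below the floor on both arrays. The hepatocyte markers summed to 317871 and 287526. Of the PC and PE synthesis genes, Chka was the 1 member above 0.18, and the part of the other cell types in its ratio was not tested. The 3′ to 5′ signal ratio of the array's Gapdh probe sets was 0.81 in the control pool and 0.82 in the KO pool, and that of its beta-actin probe sets 2.28 in both.

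**Figure D4:**
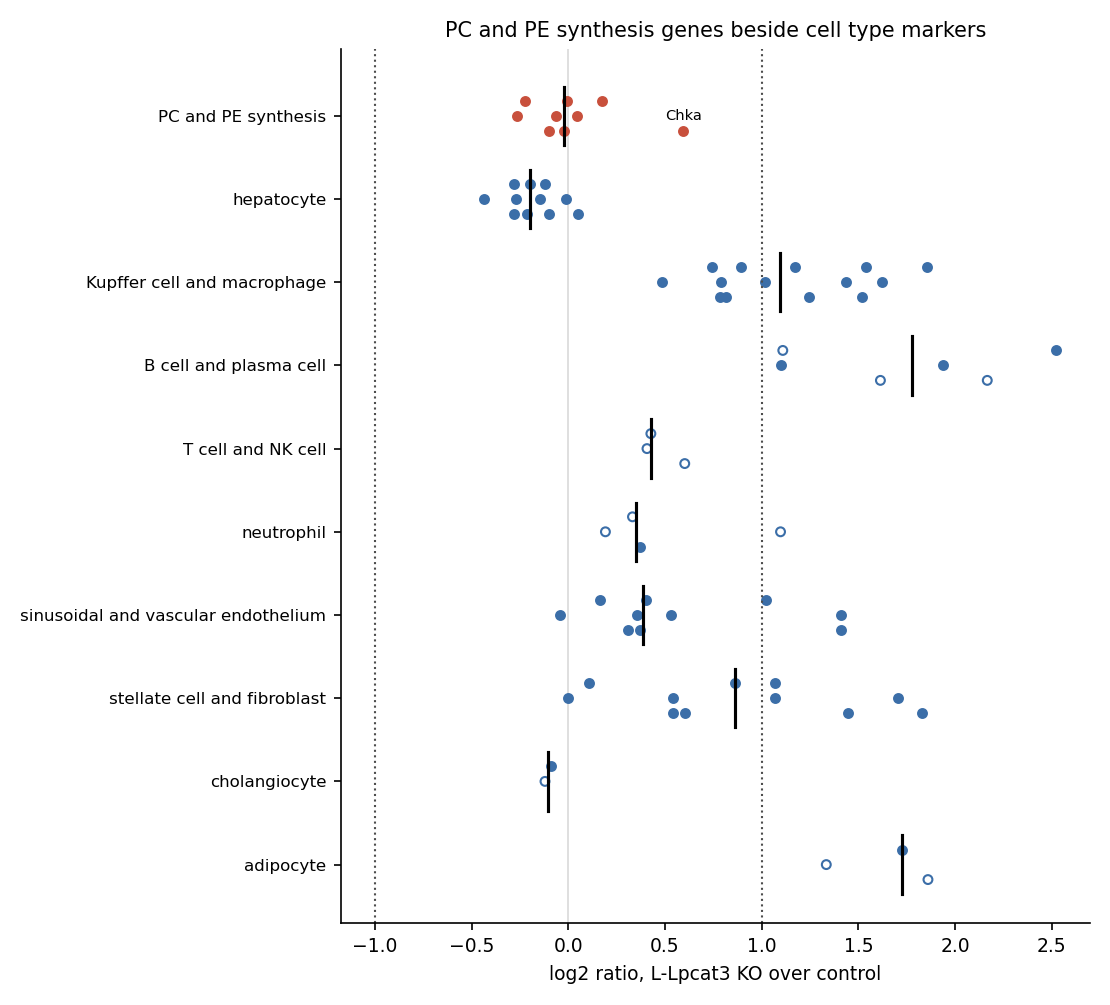
Points give log2 ratios of the KO pool over the control pool for measured marker genes and for the PC and PE synthesis genes (red); open points are bounds, black bars medians, and the 2-fold lines are dotted. The medians of the macrophage and B cell lists are 1.09 and 1.78, and 3 of the 6 B cell values are bounds. The hepatocyte list has a median of -0.20 and the PC and PE synthesis genes one of -0.02.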

How the data were processed

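Liver RNA was pooled from 5 male mice per genotype and hybridized to 1 Affymetrix array each. The authors deposited linear signal intensity values computed with MAS5 (from the submitters' processing notes, version not given in the sources used here), and their methods name GenespringGX for the analysis. Without the lowest and highest 2% of probe sets, the mean was 500 on both arrays. Detection calls were not used here. Low intensities are the noisiest, hence the floor. The number of arrays limits the precision.

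Gene symbols came from the platform annotation and were brought up to date by gene identifier with RefSeq's GRCm38.p6 table. A single symbol was given for 34958 of 45101 probe sets. The 932 with several symbols were not used, and 9211 were unnamed here. Of 18193 genes, 12290 reached the floor on at least 1 array. A single pool per genotype allows no test, so there are no p-values.

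The members and gene lists were chosen with earlier results of these data known. The genes named are all members with every probe set, Lpcat3, and from each pathway list those past 2-fold, the 3 of largest ratio and the one of highest signal. The counting was tested on simulated data, with the same noise at every signal and differences planted only in genes well above the floor. That test did not cover differences in genes near the floor. Alternatives were median centring, quantile normalization, loess, other floors or none, a pseudocount of 50, gene means over probe sets, no probe sets with the suffixes for shared transcripts, thresholds of 1.5-fold and 3-fold, and centring on hepatocyte markers. The software was Python 3.11.15 with matplotlib 3.10.9, statsmodels 0.14.6, pandas 2.3.3 and numpy 2.4.6.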

Additional observations from a re-analysis of the deposited data

Results flagged for a closer look

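The report leaves out 1 probe set that the platform annotation gives to Chkb together with Cpt1b and Gm44502, since its signal cannot be given to any 1 of the 3 genes. Chkb and Cpt1b are adjacent in the RefSeq table. This probe set (1418328_at) had a signal of 218 in the control pool and 441 in the KO pool, 2.02-fold higher. It is listed because no comparison used it and its signal was higher in the KO pool, so its direction is not a result. Its signals were under 1000, where the pooled SD of log2 ratios was 0.33. Of all measured genes, 2.70% were at least 2-fold higher. The probe set annotated to Chkb alone was at a log2 ratio of 0.18.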

How the results depend on the processing

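No paired analysis was possible because each genotype has a single pool and the labels give no replicate numbers. Of 87 values of single PC and PE synthesis genes under 10 alternatives that change a ratio, 1 moved by more than the pooled SD of 0.29: Chpt1 was at -0.54 when probe sets that can match several transcripts were left out. Against the pooled SD of their own signal range, 10 moved: those of the 8 members of signal 1000 or more after centring on hepatocyte markers, and Chpt1 also without these probe sets and with the mean of probe sets (-0.30). Ptdss1 was below 0 and Chka above 0 in every alternative, with Chka from 0.37 to 0.79. For Ptdss1 this gives no direction, since every alternative but the mean of probe sets used its brightest probe set alone. That mean (-0.15) took in a bound, and the other Ptdss1 probe set above the floor on both arrays was at 0.13 at the main setting. Pemt was below 0 and Chkb and Pcyt2 above 0 in the alternatives that kept their only probe sets, which carry the suffix _a_at. The median of the members ran from -0.04 to 0.17, the latter after centring on hepatocyte markers, which adds 0.20 to every log2 ratio. No member reached 2-fold under them. Chka was below 1.5-fold with quantile normalization (0.56), the pseudocount (0.54), the mean of probe sets (0.48), the suffixed probe sets left out (0.37) and the floor at the 75th percentile (a bound of at least 0.46). Among marker list medians, T cell and NK cell markers were at 1.03 with a floor at the 25th percentile and 0.85 with none, stellate cell markers at 0.54 with a floor at the 75th percentile, B cell markers at 1.30 with the pseudocount and 1.42 with the mean of probe sets, and adipocyte markers at 1.33 with the mean of probe sets and without those matching several transcripts. Over all genes, 332 were called higher and 86 lower. These counts were 1132 and 479 with a floor at the 25th percentile, 88 and 25 at the 75th, 2230 and 1183 with none, 1115 and 471 at 1.5-fold, 55 and 11 at 3-fold, and 594 and 41 after centring on hepatocyte markers. The single array per genotype and the signal over background of genes near the floor set the limit: a 1.5-fold difference at the signal of Chka is within 2 pooled SD.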
